A study of Mus musculus with 7 samples.

Results

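The genes described here are the zinc finger genes of the mouse genome that carry the systematic name Zfp and a number. Members were chosen by symbol, by a protein-coding biotype and by measured values, namely a mean over the 3 libraries of an LPS time course of at least 100 normalised units. Of 359 protein-coding genes with such a name, 151 met the rule, out of 48440 genes in the LPS table. Of the 208 others, 24 were listed at 0 in all 3 libraries. Zfp36, the CCCH protein tristetraprolin that binds mRNA, was left out by the rule. The rule used the LPS values themselves, so a gene low after LPS was kept only if it was high enough at 0 h. Likewise, a gene low at 0 h was kept only if it was high enough after LPS. The LPS values below are therefore a description of the genes kept. Just inside the limit were Zfp251, Zfp553 and Zfp189, with means of 102.3, 100.7 and 100.6, and just outside were Zfp959, Zfp953 and Zfp944, with means of 98.5, 98.1 and 97.7.

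C2H2 zinc finger proteins fold short repeats around a zinc ion, and tandem fingers read DNA. Many carry a KRAB domain at the amino end, which recruits the co-repressor TRIM28 and, through it, the histone methyltransferase SETDB1, so that the bound site is packed into silent chromatin. KRAB zinc finger genes multiplied in rodent genomes as neighbouring copies, and many bind retroelements. Others carry a SCAN domain, which pairs zinc finger proteins with each other, and still others act without either domain as promoter-binding factors, RNA-binding proteins or ubiquitin ligases.

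RNA was sequenced from bone-marrow-derived macrophages (BMDMs), which were grown from the marrow of wild-type C57BL/6 mice with M-CSF at 20 ng/mL. Mice were of both sexes and aged 6 to 12 weeks. In one experiment WT BMDMs were left without treatment (LPS 0h) or given LPS, a component of the bacterial outer membrane, at 100 ng/mL, and collected after 2 h or 4 h, each time point being 1 library. In the other, an adeno-associated virus carrying GFP was given to BMDMs for 48 h (AAV-GFP, genotype WT) or one carrying Shisa3 (AAV-Shisa3, genotype Shisa3 overexpression), with 2 samples per group, both inserts behind the ubiquitous CAG promoter. Nothing in the labels says that the 2 samples of a group came from separate cultures, so p-values measure only the spread between these samples. In bulk RNA, fewer cells of a type and less RNA per cell cannot be told apart.

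The LPS libraries held 15588502, 7263258 and 32659392 reads at 0 h, 2 h and 4 h, so the 2 h library was the shallowest. All 10 macrophage markers were above 1 in both tables, and the defining lymphocyte genes Cd3e, Ms4a1, Ncr1 and Trbc2 were at 0 in the LPS libraries. Of the 10 lymphocyte markers 3 had a mean above 1, and the list summed to 199, 293 and 115 at 0 h, 2 h and 4 h, with Cd4 at 127, 247 and 92.4 and Cd79b at 70.1, 45.9 and 14.7. Over LPS, the summed values of 10 neutrophil markers were 4761, 9988 and 7054. Those of 10 fibroblast markers, with Thy1 at 0, were 587, 1037 and 1180, and those of 10 dendritic cell markers were 190, 391 and 568. Their part in the results was not tested. Shisa3 itself was measured at 7.88 and 10.9 TPM in AAV-GFP and at 12.3 and 17.8 TPM in AAV-Shisa3 (limma log2 difference 0.63 ± 0.22 SE, adjusted p = 0.138), so the groups did not overlap but the difference missed the threshold of 0.05.

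Over the LPS time course most members were lower after stimulation, and most were at their lowest at 2 h. Values in this table are reads scaled by library and are not divided by transcript length, so levels are compared here between libraries and not between genes. The median value over the 151 members was 270 at 0 h, 157 at 2 h and 189 at 4 h. At 2 h, 121 members were below their 0 h value and 30 above it. The median log2 difference was -0.75, with quartiles of -1.39 and -0.20, against -0.05 for the 17854 expressed genes, meaning those whose mean was 1 or more. At least 2-fold lower were 64 members, which is 42.4%, and at least 2-fold higher were 9 members, which is 5.96%. Among expressed genes, 24.7% were 2-fold lower and 20.5% were 2-fold higher. Among the 8387 protein-coding genes with a mean of at least 100, the limit the members met, 12.7% were 2-fold lower and 17.9% were 2-fold higher.

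At 4 h the members lay closer to their starting values. The median log2 difference from 0 h was -0.39, with quartiles of -0.94 and 0.09, against -0.04 for expressed genes. There were 35 members at least 2-fold lower, or 23.2%, beside 23.6% of expressed genes and 16.1% of protein-coding genes with a mean of at least 100. Only 8 members were at least 2-fold higher, or 5.30%, beside 22.2% and 23.1% of those same sets. Between 2 h and 4 h, 32 members were at least 2-fold higher and 9 at least 2-fold lower, that is 21.2% and 5.96%. The shares over expressed genes were 17.9% and 15.2%, and over the protein-coding genes 10.1% and 8.6%. All 3 comparisons share libraries with each other.

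The lowest of the 3 values was the one at 2 h for 95 members, or 62.9%, beside 31.2% of expressed genes and 26.1% of protein-coding genes with a mean of at least 100. The highest value was at 0 h for 99 members, at 4 h for 36 and at 2 h for 16. The 0 h share was 65.6%, beside 40.8% of expressed genes and 35.5% of the protein-coding genes. These counts rest on single libraries, and the median member had 72 reads at 2 h against 420 at 0 h and 347 at 4 h. With the exact binomial interval of the ratio, which covers counting error only, 109 members were below 1 at 2 h, 20 above 1 and 22 held 1. These are 72.2% below and 13.2% above, beside 35.5% and 43.1% of the protein-coding genes with a mean of at least 100. At 4 h the counts were 93, 35 and 23, or 61.6% below and 23.2% above, beside 39.0% and 49.0%.

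As a share of all reads, members took 0.639% at 0 h, 0.346% at 2 h and 0.348% at 4 h. The 95% Wilson limits were 0.635% and 0.643% at 0 h, 0.342% and 0.351% at 2 h, and 0.346% and 0.350% at 4 h. Summed normalised values moved less, at 64099, 54956 and 61764, since the deposited values of all genes did not sum to equal totals but to 10027530, 15860561 and 17747464. The choice of scaling moved the median of all genes from -0.05 to between -0.71 and 0.26 at 2 h and from -0.04 to between -0.83 and 0.33 at 4 h. The members' median was lower than that of all genes by 0.70 on the log2 scale at 2 h and by 0.35 to 0.38 at 4 h. A scaling multiplies a whole library by 1 factor, so this difference is the same by construction in each of the 4 scalings, apart from the pseudocount. In all 4 scalings, 110 members were lower and 13 higher at 2 h, and 78 were lower and 12 higher at 4 h.

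**Figure D1:**
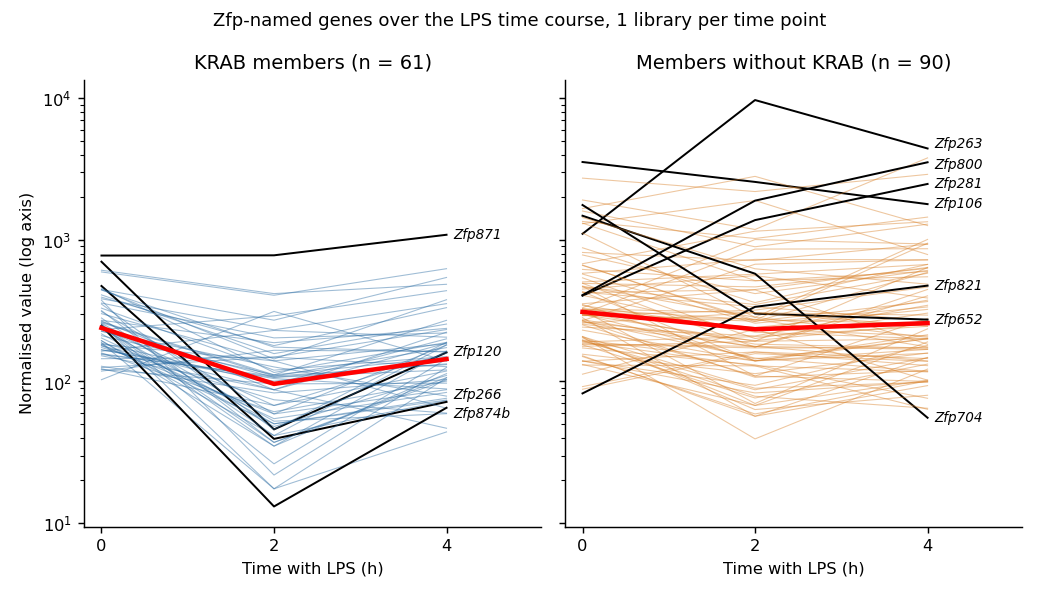
Normalised value on a log axis at 0 h, 2 h and 4 h of LPS for each of the 151 members, KRAB members on the left and the others on the right, each thin line 1 gene and the red line the median. The KRAB median was 239, 96.1 and 144, and that of the others was 310, 234 and 258.

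KRAB members were 61 of the 151 and 36 of the 64 that were at least 2-fold lower at 2 h. The coding transcripts of all 151 members were translated and searched for KRAB, SCAN and C2H2 motifs. KRAB was found in 61 members, 3 of which also had SCAN, SCAN without KRAB was found in 5, 76 had at least 2 C2H2 fingers and neither domain, and 9 had under 2 matches to the finger pattern. Members without KRAB are those in which this search found none, so a divergent KRAB domain could be missed. KRAB members carried a median of 12 fingers and the rest of the members a median of 7. At 2 h the median log2 difference of KRAB members was -1.24 and that of the 90 members without KRAB was -0.48. There were 36 KRAB members at least 2-fold lower, or 59.0%, and 1 higher. Without KRAB, 28 members were at least 2-fold lower, or 31.1%, and 8 higher. Of 23 members over 4-fold lower at 2 h, 18 had KRAB, and so did all 8 that were over 8-fold lower. With the counting interval taken in, 28 KRAB members and 17 of the others were wholly past 2-fold lower, together 29.8% of members beside 7.65% of the protein-coding genes with a mean of at least 100.

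At 4 h the gap between the classes was narrower. The median was -0.68 for KRAB members, with 20 at least 2-fold lower and 0 higher, and -0.26 for members without KRAB, with 15 lower and 8 higher. With each library centred on its median, the 4 h median of members without KRAB turned to 0.12, while that of KRAB members stayed below 0 at -0.31, and 14 KRAB members and 5 others were 2-fold lower. After that centring 17% of expressed genes were 2-fold lower at 4 h. With equal totals 47 of the 61 KRAB members and 47 of the 90 others were 2-fold lower at 4 h, and 53 and 55 at 2 h. Of expressed genes, 44.35% were 2-fold lower at 4 h with equal totals, and 40.36% at 2 h. The class sums show the same order of size, since the values of KRAB members summed to 16751, 7582 and 11464 at 0 h, 2 h and 4 h, and those of the other members to 47349, 47375 and 50300. One gene, Zfp263, held much of the latter sum at 2 h, with 9702.

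KRAB members also had fewer normalised reads per gene, a quantity that includes transcript length and is no level per length, with a median of 154 against 288. Within the band from 100 to 200, 28 of 45 KRAB members, 12 of 30 members without KRAB and 25.5% of the 1576 other protein-coding genes were at least 2-fold lower at 2 h. Within the band of at least 200, these were 8 of 16, 16 of 60 and 9.01% of 6660. The shares kept the same order in both bands. The number of reads moves together with the class, and its part in the difference between classes was not tested. Between the number of fingers and the log2 difference, Spearman's rho across the 151 members was -0.18 at 2 h and -0.001 at 4 h, where genes of 1 library are not independent replicates.

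**Figure D2:**
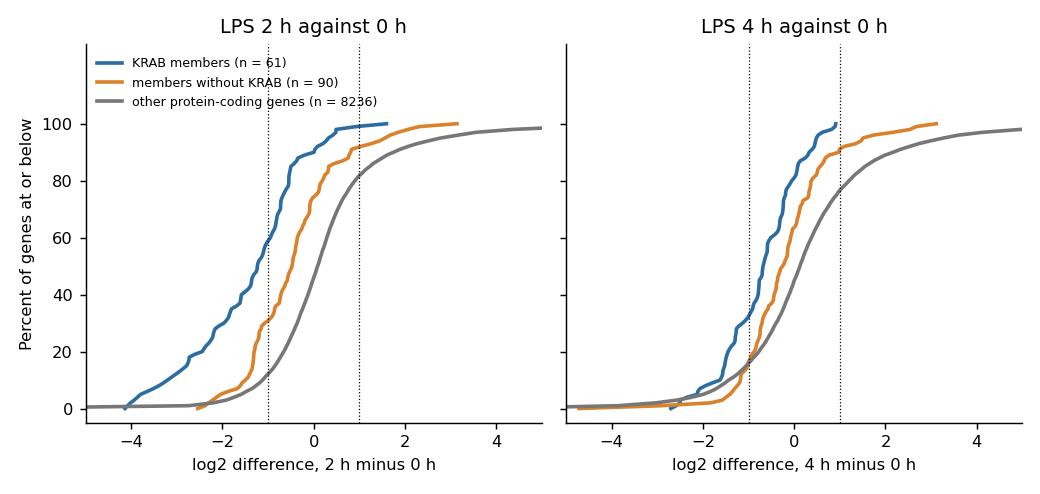
Percent of genes at or below each log2 difference from 0 h, at 2 h on the left and at 4 h on the right, for the 61 KRAB members, the 90 other members and 8236 other protein-coding genes with a mean of at least 100. Dotted lines mark 2-fold. The KRAB curve lies farthest to the left at 2 h, with a median of -1.24 against -0.48 for other members and 0.08 for the remaining genes.

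The 8 largest differences downward at 2 h were all in KRAB genes. Zfp874b was at 247, 13.1 and 65.2 at 0 h, 2 h and 4 h, which is 18.9 times lower at 2 h, on 384, 6 and 120 reads. Zfp709 was at 374, 21.8 and 126, or 17.1 times lower at 2 h. Zfp120 was at 701, 45.9 and 160, or 15.3 times lower, on 21 reads at 2 h against 1089 at 0 h. These values were low at 2 h and came part of the way back by 4 h. Zfp157 was at 255, 17.5 and 44.0. Zfp266 was at 472, 39.3 and 71.7. Both of these stayed more than 5 times below 0 h at 4 h, at 5.79 and 6.58 times lower. Zfp758 and Zfp950 were at 17.5 and 26.2 at 2 h but at 106 and 144 at 4 h, within 2-fold of their starting values of 188 and 250. Zfp65 completed the group with 316, 37.1 and 107. In all, 13 members had under 20 reads at 2 h, so their folds carry wide intervals. For Zfp874b the ratio of 2 h to 0 h was 0.053 with a 95% counting interval of 0.019 to 0.117, and for Zfp120 it was 0.065 with 0.040 to 0.101.

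Many KRAB members lie next to each other in the genome, and the values of such runs varied. With a gap of at most 500000 bases between neighbours, 76 members fell into 21 runs and 75 stood alone. The longest run, on chromosome 13 (GRCm38, chr13:67362113-67729173), held Zfp456, Zfp429, Zfp874b, Zfp87, Zfp748, Zfp729b, Zfp729a, Zfp738 and Zfp65. All 9 had KRAB, 8 were at least 2-fold lower at 2 h, and the median log2 difference was -2.38 at 2 h and -0.66 at 4 h. Another, on chromosome 17 (chr17:21008903-22867134), held Zfp160, Zfp53, Zfp52, Zfp942, Zfp943, Zfp758 and Zfp945. All 7 had KRAB, 6 were at least 2-fold lower at 2 h, and the medians were -2.44 and -0.77. The 6 shorter runs made up of KRAB members alone ranged from 0 of 3 at least 2-fold lower (Zfp868, Zfp869 and Zfp866, median -0.55) and 1 of 3 (Zfp715, Zfp658 and Zfp719, median -0.38) to 2 of 2 (Zfp709 and Zfp617, median -2.81). In a run of 4 on chromosome 17 with 3 KRAB members, 1 was at least 2-fold lower. A run of the same size as the second, on chromosome 7 (chr7:127233061-127885996) held 7 members, of which 1 had KRAB. There 2 were at least 2-fold lower at 2 h and the median was -0.45. Over all KRAB members the share at least 2-fold lower at 2 h was 59.0%. It was 24.7% of expressed genes and 12.7% of protein-coding genes with a mean of at least 100. Chromosome 7 held the most members, 37, with a median of -0.62 at 2 h.

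**Figure D3:**
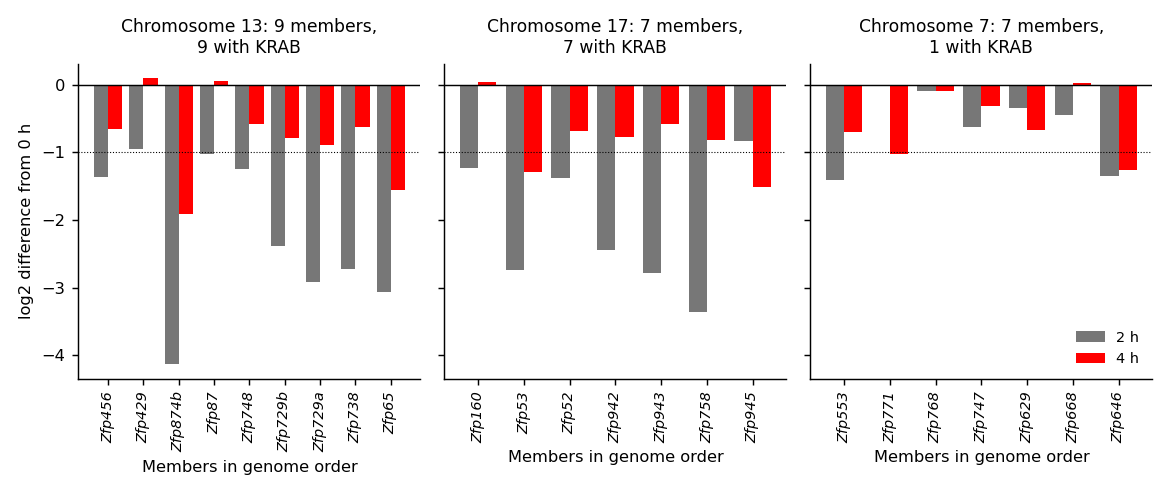
Log2 difference from 0 h at 2 h (grey) and 4 h (red) for the members of the 3 longest runs of neighbouring genes, in genome order. The dotted line marks 2-fold lower, which 8 of 9 members passed at 2 h on chromosome 13, 6 of 7 on chromosome 17 and 2 of 7 on chromosome 7.

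Neighbouring copies can share sequence, and how reads that match several genes were counted is not given in the sources used here. To see how much could be exchanged, every 50-base window of each member's longest coding transcript was looked up in the transcripts of all other genes. Of 151 members, 72 shared no window and 16 shared over 10%, among them 10 with KRAB. Zfp729b shared 40.8%, Zfp874b 14.2%, Zfp729a 13.6% and Zfp738 9.12%, and values of these genes are uncertain to that extent. Zfp266 shared no window, Zfp120 shared 0.956% and Zfp53 shared 0.497%. Of 32 KRAB members with at most 1% of windows shared, 16 were at least 2-fold lower at 2 h, with a median log2 difference of -0.99. Of 76 members without KRAB under the same limit, 22 were at least 2-fold lower, with a median of -0.44. The part of shared sequence in the members' differences was not tested.

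The largest differences downward at 4 h included members with and without KRAB. Of 4 members on the developmental and lineage list, Zfp703 was at least 2-fold higher and Zfp704 lower at 2 h. At 4 h all 4 were below 0 h and 3 were at least 2-fold lower, with a median log2 difference of -1.09, beside 23.6% of expressed genes at least 2-fold lower. With libraries centred on their medians, Zfp704 alone was 2-fold lower, at -4.34, while Zfp318 and Zfp609 were at -0.64 and -0.80 and Zfp703 was above 0 h at 0.23. Zfp503 and Zfp618 are on the same list but under the level limit, and were 11.5-fold and 11.1-fold higher at 4 h. Zfp608, also listed and under the limit, was at 81.7, 131 and 56.5. Zfp423 and Zfp521, the other listed genes under the limit, had at most 3 reads per library and were below 0 h at 4 h. Zfp704 was at 1479 at 0 h, 576 at 2 h and 55.4 at 4 h. It was 26.7 times lower at 4 h, the largest difference downward of any member at that time, on 2299 and 102 reads. Zfp652, which works with CBFA2T co-repressors, was at 1761, 301 and 273, or 6.44 times lower at 4 h. Zfp652 had reached its low value by 2 h and Zfp704 had not. Among the 10 largest differences downward at 4 h were also the KRAB genes Zfp266, Zfp157, Zfp369, Zfp120, Zfp12, Zfp874b and Zfp182, between 6.58 and 3.11 times lower. Zfp369, a relative of the neurotrophin receptor interacting factor Zfp110, was at 267, 87.3 and 46.7. Zfp524 was the tenth, at 196, 78.6 and 64.7, but shared 46.0% of its windows with another gene model, Gm44973.

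The members at least 2-fold higher after LPS were few, and in all but Zfp382 the search found no KRAB domain. Zfp800 was at 407, 1891 and 3528, which is 4.64-fold higher at 2 h and 8.67-fold higher at 4 h. Zfp281, a factor that binds GC-rich promoters and takes part in the exit from pluripotency, was at 403, 1378 and 2480, or 3.42-fold and 6.15-fold higher. Zfp821 was at 82.3, 336 and 475. These 3 genes were higher at 4 h than at 2 h. Zfp263, which pairs a SCAN domain with 9 fingers, was at 1103, 9702 and 4416, or 8.80-fold higher at 2 h (counting interval 8.32 to 9.31) and 4.01-fold higher at 4 h. It was the member with the largest difference upward at 2 h. Zfp131, a BTB-domain zinc finger protein, was at 301, 860 and 865. Zfp319 was at 331, 1004 and 934, and Zfp513 at 269, 673 and 721. For these 3 genes the 2 h and 4 h values were near each other. Zfp654 was at 297, 192 and 638, first below and then above its starting value, and was 2.15-fold higher at 4 h.

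Only at 2 h were Zfp382 and Zfp703 at least 2-fold higher. Zfp382, the KRAB exception, was at 103, 312 and 140, and Zfp703 was at 113, 234 and 102. Counting intervals lay wholly above 2-fold for 8 members at 2 h and for 7 at 4 h, the 7 being Zfp131, Zfp263, Zfp281, Zfp319, Zfp513, Zfp800 and Zfp821. These are 5.30% and 4.64%, beside 15.3% and 20.7% of the protein-coding genes. At 4 h, 4 members were at least 2-fold higher in all 4 scalings. With reads scaled to equal library totals, 4 members were at least 2-fold higher at each time, against 9 and 8 as deposited. The shares of expressed genes were 13.72% and 13.89% with equal totals, against 20.54% and 22.17% as deposited.

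**Figure D4:**
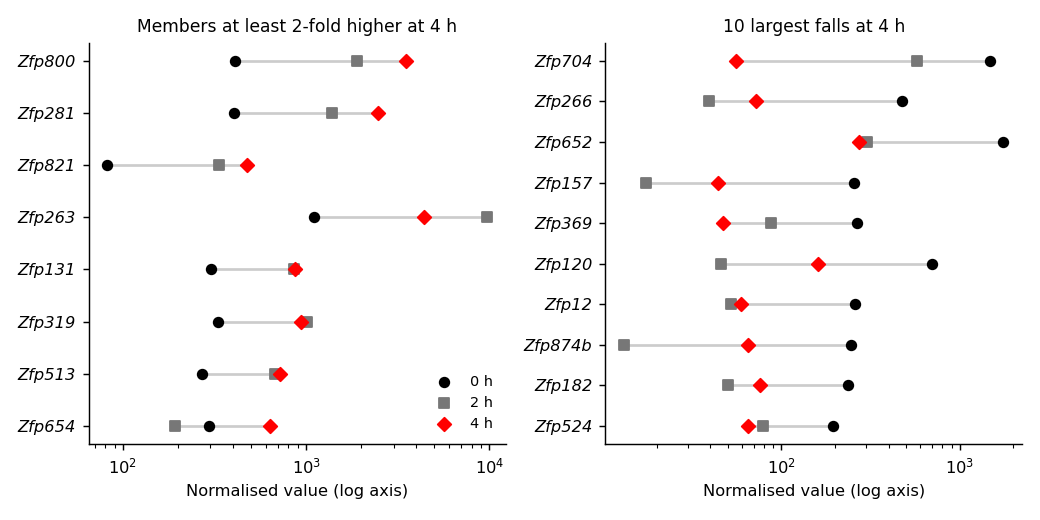
Normalised values on a log axis at 0 h (black circles), 2 h (grey squares) and 4 h (red diamonds) of LPS, 1 library each, for the 8 members at least 2-fold higher at 4 h and for the 10 largest differences downward at 4 h. Zfp800 went from 407 to 3528 and Zfp704 from 1479 to 55.4.

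Promoter letters were compared between members that stood higher and lower. RefSeq promoters of build GRCm38.p6 matched 126 of the 151 members by symbol. Motifs were searched in the 250 bases before each start, and a gene with several starts counted if any of them held the motif. A GC box (GGGCGG, either strand) was present in 58.7% of those 126 members against 35.4% of all 27025 genes with a promoter, in 45.3% of the 53 matched KRAB promoters and in 68.5% of the 73 others. All 7 matched promoters of the members at least 2-fold higher at 4 h held one, and so did 56.6% of the 53 matched promoters of members at least 2-fold lower at 2 h. A CCAAT box was present in 47.6% of members against 37.5% of all promoters, an ETS match (CCGGAAG) in 16.7% against 7.83%, a CRE (TGACGTCA) in 4.76% against 1.77% and a TATA box (TATAAA) in 7.14% against 14.3%. A kappaB match (GGG, any 2 bases, then TTTCC) was present in 3.97% against 1.65%, in 5 KRAB promoters, 0 others and 0 of the 7 matched promoters of members higher at 4 h. An AP-1 match (TGANTCA) was present in 5.56% against 7.82%. All motifs were searched on both strands, GC boxes that overlap another motif were counted in both, and a match is a description of letters only.

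The 250 bases upstream of 3 members that stood higher and 2 that stood lower are given to show these letters, 5′ to 3′ on the strand of the gene, with GC boxes in capitals. They lie at chr1:136624651-136624900 on the plus strand (Zfp281), chr6:28398006-28398255 on the minus strand (Zfp800), chr16:3743849-3744098 on the plus strand (Zfp263), chr9:20521420-20521669 on the minus strand (Zfp266) and chr2:150136679-150136928 on the minus strand (Zfp120).
Zfp281: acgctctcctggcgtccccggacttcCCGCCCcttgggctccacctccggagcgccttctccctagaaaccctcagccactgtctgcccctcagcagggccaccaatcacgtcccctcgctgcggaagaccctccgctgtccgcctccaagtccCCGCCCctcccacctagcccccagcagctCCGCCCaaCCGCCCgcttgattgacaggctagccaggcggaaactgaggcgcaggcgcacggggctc
Zfp800: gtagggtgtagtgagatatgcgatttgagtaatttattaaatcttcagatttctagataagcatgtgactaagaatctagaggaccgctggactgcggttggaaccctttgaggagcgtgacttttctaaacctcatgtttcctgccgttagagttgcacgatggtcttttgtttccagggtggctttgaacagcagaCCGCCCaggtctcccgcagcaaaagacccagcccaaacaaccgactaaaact
Zfp263: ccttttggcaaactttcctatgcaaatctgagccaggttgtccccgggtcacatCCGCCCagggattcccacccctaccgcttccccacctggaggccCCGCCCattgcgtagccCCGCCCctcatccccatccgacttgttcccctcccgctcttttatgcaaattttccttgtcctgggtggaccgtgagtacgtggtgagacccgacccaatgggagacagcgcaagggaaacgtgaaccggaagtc
Zfp266: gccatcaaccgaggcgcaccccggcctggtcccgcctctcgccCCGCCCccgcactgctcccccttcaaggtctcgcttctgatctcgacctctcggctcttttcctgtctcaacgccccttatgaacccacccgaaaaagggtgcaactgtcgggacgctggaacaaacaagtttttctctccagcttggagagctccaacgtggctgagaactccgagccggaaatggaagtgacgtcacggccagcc
Zfp120: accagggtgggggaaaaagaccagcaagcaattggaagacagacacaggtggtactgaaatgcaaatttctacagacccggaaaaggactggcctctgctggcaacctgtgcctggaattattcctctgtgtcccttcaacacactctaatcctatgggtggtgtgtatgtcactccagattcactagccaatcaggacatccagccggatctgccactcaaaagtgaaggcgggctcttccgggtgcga

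Zfp281 held 4 GC boxes in 250 bases that were 69.6% G and C, Zfp263 held 3, Zfp800 and Zfp266 held 1 each and Zfp120 held 0. Zfp120 held 2 CCAAT boxes and an ETS match, Zfp263 held 1 CCAAT box and an ETS match, Zfp281 held 1 CCAAT box, Zfp266 held a CRE, and Zfp800 held none of the other motifs. GC boxes were thus seen on either side of the LPS difference.

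Members were also grouped by copies of AUUUA in the 3′ untranslated region. AUUUA, the core of AU-rich elements that mark short-lived mRNAs, was absent from the 3′ untranslated region of 30 members, and 7 of these were at least 2-fold lower at 2 h, with a median of -0.54. Of 85 members with 1 to 5 copies, 33 were at least 2-fold lower, with a median of -0.72. Of 32 members with 6 to 15 copies, 22 were at least 2-fold lower, with a median of -1.30. Of the 4 members with more than 15 copies, 2 were at least 2-fold lower, with a median of -1.02, so the bins did not run in one order. Beside these counts, 24.7% of expressed genes and 12.7% of protein-coding genes with a mean of at least 100 were at least 2-fold lower at 2 h. Across the 151 members, Spearman's rho with the 2 h difference was -0.27 for the number of copies and -0.26 for the length of the region. At 4 h the 4 bins had medians between -0.58 and -0.11. Longer regions hold more copies, so length and number cannot be told apart by these values.

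Members whose proteins have other known work were grouped by lists, none of which the rule used. The list of DNA, RNA-handling and ribosome-linked members held 9 that met the level, and 2 of these were at least 2-fold lower at 2 h and 0 higher, the 22.2% lower being near the 24.7% of expressed genes. The RNA-binding protein Zfp106 was at 3543, 2564 and 1787. Zfp207, which loads the checkpoint protein BUB3 onto kinetochores, was at 1911, 1184 and 3789. Zfp638, which silences unintegrated retroviral DNA, was at 1597, 893 and 1290. Each of these 3 was below 0 h at 2 h. Zfp598, the ubiquitin ligase that marks collided ribosomes, was at 354, 443 and 183, and Zfp622, a 60S ribosome assembly factor, was at 449, 559 and 389. Both were higher at 2 h and lower at 4 h than at 0 h as deposited, but with equal totals they were lower at 2 h, at -0.34 each on the log2 scale, and with libraries centred on their medians Zfp622 was at 0.16 at 4 h.

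Of 12 chromatin complex members, 1 was at least 2-fold higher at 2 h, Zfp281, and 1 lower, Zfp518a, linked to the H3K9 methyltransferase G9a, at 469, 109 and 279. These were 8.33% each way, beside 20.5% of expressed genes higher and 24.7% lower. The list's median log2 difference was -0.09 at 2 h, with quartiles of -0.77 and 0.38, beside -0.75 for all members, and -0.38 at 4 h beside -0.39. The difference between the list and the other members was not tested. Zfp217, a subunit of CoREST-type repressor complexes, was at 1662, 2806 and 1261, and Zfp516, a partner of PRDM16 in brown fat, was at 1300, 1895 and 787. These 2 were highest at 2 h and below 0 h at 4 h as deposited, but with equal totals their log2 differences at 2 h were 0.094 for Zfp217 and -0.12 for Zfp516. Zfp687 and Zfp592, which sit with ZMYND8 in one complex, were at 325, 306 and 294 and at 504, 572 and 669, near their 0 h values.

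Of the 6 promoter-binding factor members, 2 were at least 2-fold higher at 2 h, Zfp263 and Zfp281, and 2 were lower, Zfp24 and Zfp148. That is 33.3% each way of a short list, beside 20.5% and 24.7% of expressed genes. Zfp148 was at 879, 360 and 671. Zfp143, which binds at chromatin loop anchors, was at 291, 319 and 464, and Zfp384 at 493, 465 and 629. The ubiquitin ligase Zfp91, which acts on the NF-κB inducing kinase, was at 1348, 1022 and 1447, and the SUMO ligase Zfp451 at 539, 201 and 304. Zfp445 and Zfp568 were the 2 members of the retroelement and imprint list. Zfp445, which protects imprinted methylation, was at 610, 417 and 485, and Zfp568, a repressor of a placental Igf2 promoter, at 232, 290 and 437. Both carry KRAB. Neither was past 2-fold at 2 h as deposited, but Zfp445 was at -1.21 on the log2 scale with equal totals.

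The co-repressor machinery that KRAB proteins use was measured in the same libraries. Of 37 listed genes, 3 were at least 2-fold higher and 7 at least 2-fold lower at 2 h, with a median log2 difference of -0.12, and 8 were higher and 9 lower at 4 h. The shares were 8.11% and 18.9% at 2 h, beside 20.5% and 24.7% of expressed genes, and 21.6% and 24.3% at 4 h, beside 22.2% and 23.6%. Trim28 was at 1463, 1072 and 917. Setdb1 was at 1027, 373 and 379, or -1.46 and -1.43 on the log2 scale. Trim28, the direct partner of KRAB, was within 2-fold of 0 h at both times as deposited, but at -1.11 and -1.50 on the log2 scale with reads scaled to equal totals. Setdb1 was past 2-fold lower in each of the 4 scalings. Zmynd8 was at 2164, 393 and 383, and Atf7ip, the partner of SETDB1, at 785, 205 and 273. Dnmt1, the maintenance DNA methyltransferase, was at 1848, 1194 and 377. On the other side, the histone chaperone gene Daxx was at 572, 11916 and 11173.

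Transduction with AAV-Shisa3 moved the members little. The AAV table gives values that were read as TPM, a unit scaled by transcript length, and 150 members have a row, Zfp607 having none under that symbol. With a filter at a mean of at least 1 TPM, 146 members were among the 11218 genes tested with limma on log2(TPM + 1). The level rule did not use these samples, but members and gene lists were chosen with earlier results of these data known. At an adjusted p under 0.05, 0 members were higher and 1 was lower, beside 2.23% and 4.1% of all genes tested. At an unadjusted p under 0.05 in limma, 2 members were higher and 25 lower, that is 1.37% and 17.1%, beside 8.21% and 19.8% of all genes. These counts were 4 and 11 with samples centred on their medians, and 2 and 31 without limma's variance trend. The shares of all genes in those settings were not counted. The median log2 difference was -0.17 for members and -0.10 for all genes. By sign alone 119 members were lower, or 81.5%, and 27 higher, beside 65.0% of all genes tested that were lower. Both AAV-Shisa3 samples lay below both AAV-GFP samples for 81 members, or 55.5%, and above for 5, or 3.42%, beside 41.2% and 18.2% of all genes tested. In a design of 2 against 2 samples an exact permutation test cannot go below p = 0.333, so these orders are no test.

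The member past the threshold was Zfp703, which encodes a transcriptional co-repressor and is on the developmental list. It was at 38.0 and 38.4 TPM in AAV-GFP and at 24.2 and 27.9 TPM in AAV-Shisa3, a log2 difference of -0.54 ± 0.10 SE (limma adjusted p = 0.0415). The groups did not overlap and the 2 AAV-GFP samples nearly coincided. Zfp703 lost the call when any 1 of the 4 samples was left out, when samples were centred on their medians, when low genes were not filtered and when the variance trend was not used. With 1 sample left out, the log2 difference of Zfp703 stayed between -0.64 and -0.44. Of all genes, 0 of 20300 were called without the filter and 5 of 11218 without the trend. Zfp512b had the largest difference downward, with 13.4 and 13.4 TPM in AAV-GFP and 5.87 and 8.64 TPM in AAV-Shisa3 (log2 -0.82 ± 0.18 SE, limma adjusted p = 0.0562). Zfp777, a KRAB gene, had the largest upward, with 4.50 and 3.93 TPM against 7.07 and 6.58 TPM (0.59 ± 0.14 SE, limma adjusted p = 0.0682). Zfp91 was at 22.9 and 23.98 TPM against 17.5 and 17.9 TPM (-0.39 ± 0.09 SE, limma adjusted p = 0.0698). These 3 missed the threshold, though their groups did not overlap.

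The other members among the 15 smallest p-values were Zfp830, Zfp335, Zfp444, Zfp260, Zfp143, Zfp524, Zfp148, Zfp445, Zfp553, Zfp189 and Zfp516, with log2 differences between -0.56 and -0.34 and limma adjusted p-values between 0.0822 and 0.121. For all of these the AAV-Shisa3 samples lay below the AAV-GFP samples. Zfp445 was at 43.7 and 51.9 TPM against 30.3 and 38.2 TPM, and Zfp143 at 21.13 and 20.48 TPM against 16.8 and 15.6 TPM. Of the most abundant members per length, Zfp207 was at 138 and 135 TPM in AAV-GFP and Zfp710 at 87.5 and 94.5 TPM, and neither passed the test, with log2 differences of -0.06 and -0.17.

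**Figure D5:**
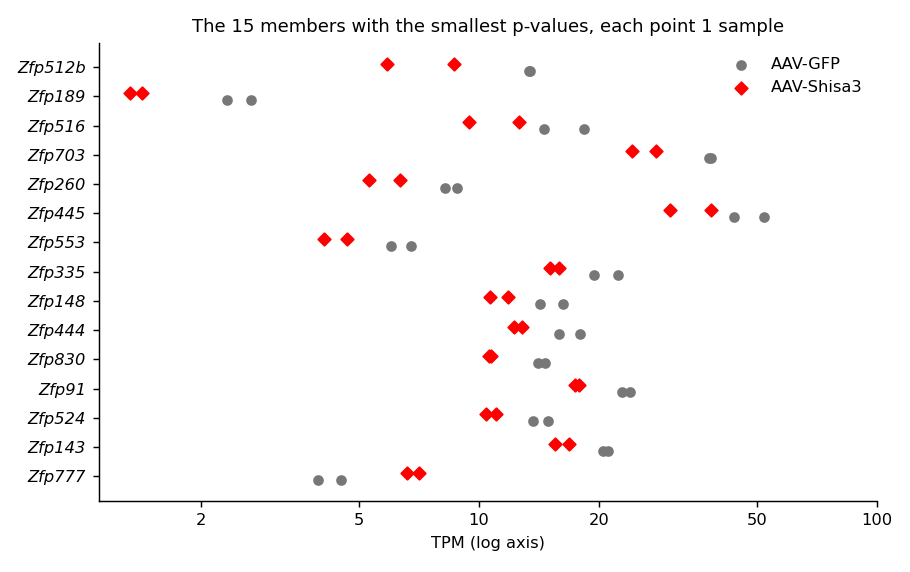
TPM on a log axis in each of the 2 AAV-GFP (grey circles) and 2 AAV-Shisa3 (red diamonds) samples for the 15 members with the smallest p-values, ordered by log2 difference. In all but Zfp777 both AAV-Shisa3 samples lie below both AAV-GFP samples, and Zfp703 was the 1 past the threshold.

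In the AAV samples the classes gave similar medians. Of 56 KRAB members tested the median was -0.17 and 0 passed the threshold, and of 90 without KRAB it was -0.18 and 1 passed. At an unadjusted p under 0.05 in limma, 3 of the 56 and 22 of the 90 were lower, or 5.36% and 24.4%, beside 19.8% of all genes tested. Both AAV-Shisa3 samples lay below both AAV-GFP samples for 27 and 54, or 48.2% and 60%, beside 41.2%. The difference between the classes was not tested. Of the 10 members at least 2-fold higher at 2 h or 4 h of LPS, Zfp800 and Zfp513 had AAV log2 differences above 0, at 0.33 and 0.20, and 8 were below 0, from -0.54 for Zfp703 to -0.04, with Zfp703 the 1 past the threshold. Across the 146 members, which share libraries and depth and are not independent replicates, Spearman's rho of the AAV difference was 0.27 with the LPS difference at 2 h and 0.29 with that at 4 h. Of the co-repressor genes, 36 were tested, and 1 was higher and 2 were lower, that is 2.78% and 5.56%, beside 2.23% and 4.1% of all genes tested. At an unadjusted p under 0.05 in limma 38.9% were lower, beside 19.8%, both AAV-Shisa3 samples lay below for 58.3%, beside 41.2%, and the median was -0.24, beside -0.10. The list was not tested against other genes. Setdb1 was at 24.4 and 25.5 TPM in AAV-GFP and at 14.21 and 14.95 TPM in AAV-Shisa3 (log2 -0.74 ± 0.10 SE, limma adjusted p = 0.0231). The SUMO gene Sumo3 was lower by 0.46 on the log2 scale (adjusted p = 0.0315) and Daxx higher by 0.42 (adjusted p = 0.0464). All 3 lost the call when any 1 of the 4 samples was left out, when low genes were not filtered and when the variance trend was not used, with limma adjusted p-values between 0.0557 and 0.213, and Sumo3 also after centring (0.0714). Trim28 had a log2 difference of -0.28 (adjusted p = 0.0932). The summed TPM of the 10 neutrophil markers was 593 and 565 in AAV-GFP and 1092 and 683 in AAV-Shisa3, that of 10 proliferation genes 350 and 314 against 450 and 368, and that of 10 LPS response genes 2456 and 2612 against 4893 and 4874. The part of these in the members' differences was not tested.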

How the data were processed

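The authors deposited the LPS libraries as a signal, meaning reads of a gene scaled by a library factor. Whole reads were recovered for 100% of values, within 0.1 of a read. For the AAV samples the authors deposited values that sum to between 999778 and 999818 per sample and were read as TPM, and depth is unknown. The submitters' processing notes name build mm9. The aligner, counter and annotation are not given in the sources used here. Positions and transcripts came from GENCODE M21 (GRCm38), matched by gene identifier for 151 of 151 members.

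The members and gene lists were chosen with earlier results of these data known. Named members were the 10 with the highest means, the 10 largest differences each way at 4 h and 8 at 2 h, the 15 smallest AAV p-values, the neighbours of the limit, members that turned between 2 h and 4 h, and list members as examples. LPS differences were taken on log2(value + 1) with no test, since 1 library per time point leaves no residual degrees of freedom, and a count model on the recovered reads could not be fitted. Ratio intervals were exact binomial and shares had 95% Wilson intervals, and both cover counting error only. AAV samples were compared with limma 3.58.1 (trend, log2(TPM + 1), mean of at least 1 TPM, Benjamini-Hochberg over 11218 genes), which was tested on simulated data. Fold changes on this scale understate those of low genes. KRAB and SCAN were scored on translated GENCODE transcripts over the first 400 residues, with a minimum of 50 bits; the lowest KRAB score called was 53.4 and the highest not called 14.1. That search, and the search for shared 50-base windows, were chosen after seeing the data. Alternatives were other scalings (including edgeR 4.0.16 TMM factors), pseudocounts, filters, member limits, the replicate number as a block and leaving out each AAV sample. R 4.3.3 and Python 3.11.15 were used.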

Additional observations from a re-analysis of the deposited data

How the results depend on the processing

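Each library centred on its median, the LPS medians of the members were -0.43 at 2 h and -0.021 at 4 h, with 15 members at least 2-fold higher and 19 lower at 4 h. Of expressed genes, 29.6% were higher and 17% lower at 4 h after this centring. Reads scaled to equal library totals gave 4 higher, 108 lower and a median of -1.41 at 2 h, and 4 higher, 94 lower and -1.21 at 4 h. Of expressed genes, that scaling put 13.72% higher and 40.36% lower at 2 h, and 13.89% and 44.35% at 4 h. TMM factors gave medians of -0.82 and -0.44, and a pseudocount of 5 gave -0.74 at 2 h. A member limit of 50 (200 genes) gave 102 lower and -1.04 at 2 h and 64 lower and -0.60 at 4 h, and a limit of 200 (76 genes) gave 24 lower and -0.53, and 10 lower and -0.18. Of the 108 members with at most 1 percent of windows shared, 38 were lower at 2 h. The cause of these shifts beyond the change of scale or of members was not tested. At a pseudocount of 0.1 the counts stayed within 1.5 times of those reported.

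In the AAV samples the members called higher and lower were 0 and 0 without the trend, after centring (median -0.056), without a filter and with a member limit of 200, and 0 and 2 with at least 1 TPM in every sample (Zfp512b and Zfp703). Leaving out each sample in turn gave member medians from -0.21 to -0.12, beside -0.12 to -0.076 for all genes tested. The lone sample of a group was assumed there to vary like the other group. With the replicate number as a block, 1 was higher (Zfp777) and 4 were lower (Zfp445, Zfp512b, Zfp516 and Zfp703), and calls over all genes went from 710 to 1275. The deviations of same-numbered samples correlated at 0.188 over 11218 genes, and with 2 pairs and no label that ties the numbers to a shared culture the samples share only a number. Over all genes tested, 5 were called without the trend, 0 of 20300 without a filter and 640 of 11218 after centring. The 2 h LPS library limits the folds of low members.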

Other observations

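Most Zfp-named genes under the limit of 100 were also lower after LPS. Of 109 with means from 20 to 100, 89 were at least 2-fold lower at 2 h and 5 higher, with a median log2 difference of -2.16, and of 61 with means from 1 to 20, 41 were lower and 9 higher. The shares lower were 81.7% and 67.2%, beside 34.6% of the 2177 protein-coding genes without such a name at the first level and 33.7% of the 2523 at the second. The shares higher were 4.59% and 14.8%, beside 12.3% and 24.9%. Values at these levels rest on few reads at 2 h, and the difference was not tested. Zfp503 and Zfp618, developmental regulators under the limit, went the other way, at 16.1, 54.6 and 184 and at 7.08, 24.02 and 78.8 at 0 h, 2 h and 4 h.

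Zinc finger genes of other names with a mean of at least 100 are given by family, beside 17.9% higher and 12.7% lower among all protein-coding genes of that level at 2 h. No difference between families was tested. Of 28 Zbtb genes, which pair a BTB domain with C2H2 fingers, 5 were at least 2-fold higher and 10 lower at 2 h, with a median of -0.42. Of 9 Zscan and Zkscan genes, which carry SCAN or KRAB domains, 0 were higher and 4 lower, with a median of -0.74. Of 5 Zmym genes, which carry fingers of the MYM type, 0 were higher and 3 lower, with a median of -1.24. Of 12 Zc3h genes, whose CCCH fingers bind RNA, 4 were higher and 1 lower, with a median of 0.72. Zfp36, also of the CCCH type, was at 713, 13539 and 12971, and in the AAV samples at 156 and 157 TPM in AAV-GFP and at 262 and 242 TPM in AAV-Shisa3 (log2 difference 0.68 ± 0.07 SE, limma adjusted p = 0.0178). Zfp36 lost this call when any 1 of the 4 samples was left out, without a filter and without the variance trend, with limma adjusted p-values between 0.0562 and 0.145.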
